A study of Mus musculus with 6 samples.

Results

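Axon guidance ligands and receptors were examined in astrocytes of the mouse neocortex. The set comprises the semaphorins (Sema3 to Sema7) with their plexin and neuropilin receptors, the ephrins with the Eph receptors, the Slits with the Robos, and the netrins and netrin-Gs with Dcc, Neo1 and the Unc5 receptors. Members were taken by a rule on gene symbols, which gave 72 of the 43383 rows of the expression table. Of these, 31 had a mean of at least 1 RPKM (reads per base of mRNA, relative to the depth of the library) over all libraries and were tested together with the 13999 rows of the table that reached this level.

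RNA was sequenced from upper-layer astrocytes (ULAs), taken from layers II–IV, and deep-layer astrocytes (DLAs), taken from layers V–VI. The tissue was somatosensory cortex, and the mice were males of the Aldh1l1-eGFP strain at 4 weeks of age. Each layer contributed 1 library from each of 3 brains, 6 libraries in all. All samples carry the same transgene, in which the Aldh1l1 promoter drives GFP, and astrocytes were collected by sorting GFP-positive cells. Layer I, the meninges and the corpus callosum were discarded, so astrocytes of these regions are not represented. Parts of layers IV and V at their border were lost in the dissection, so astrocytes of these layers are represented only in part. Libraries held 24.5 to 26.7 M reads in ULAs and 19.7 to 29.6 M in DLAs.

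Guidance cues are ligands, either secreted or held on a cell surface, that attract or repel growing axons and migrating cells through receptors on those cells. Class 3 semaphorins are secreted and act through neuropilins and plexins, whereas the semaphorins of classes 4 to 7 are bound to the membrane and act mostly on plexins directly. Ephrins and Eph receptors signal between touching cells in both directions, Slits repel through Robo receptors, and netrins attract through Dcc and repel through Unc5 receptors. In the mature brain, several of these proteins also act at synapses and at contacts between glia and neurons.

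The guidance genes present in these astrocytes were mainly surface proteins. Membrane-bound semaphorins made up the largest family by level, with RPKM values that summed to between 97.0 and 141 per library. Sema4a alone gave 51.4 to 84.1 RPKM of these sums, and the Eph receptors together reached 44.1 to 67.1 RPKM. The 7 secreted class 3 semaphorins together reached only 0.16 to 0.34 RPKM per library, and the 3 Slits together reached 0.06 to 0.24 RPKM. Of the 72 members, 37 stayed below 1 RPKM in every library, and 11 had a mean of at least 10 RPKM. Sema4a was the most abundant member, with a level above 91.8% of all rows tested. It was followed by the receptors Ephb1 (mean of 22.4 RPKM) and Dcc (20.3 RPKM).

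**Figure D1:**
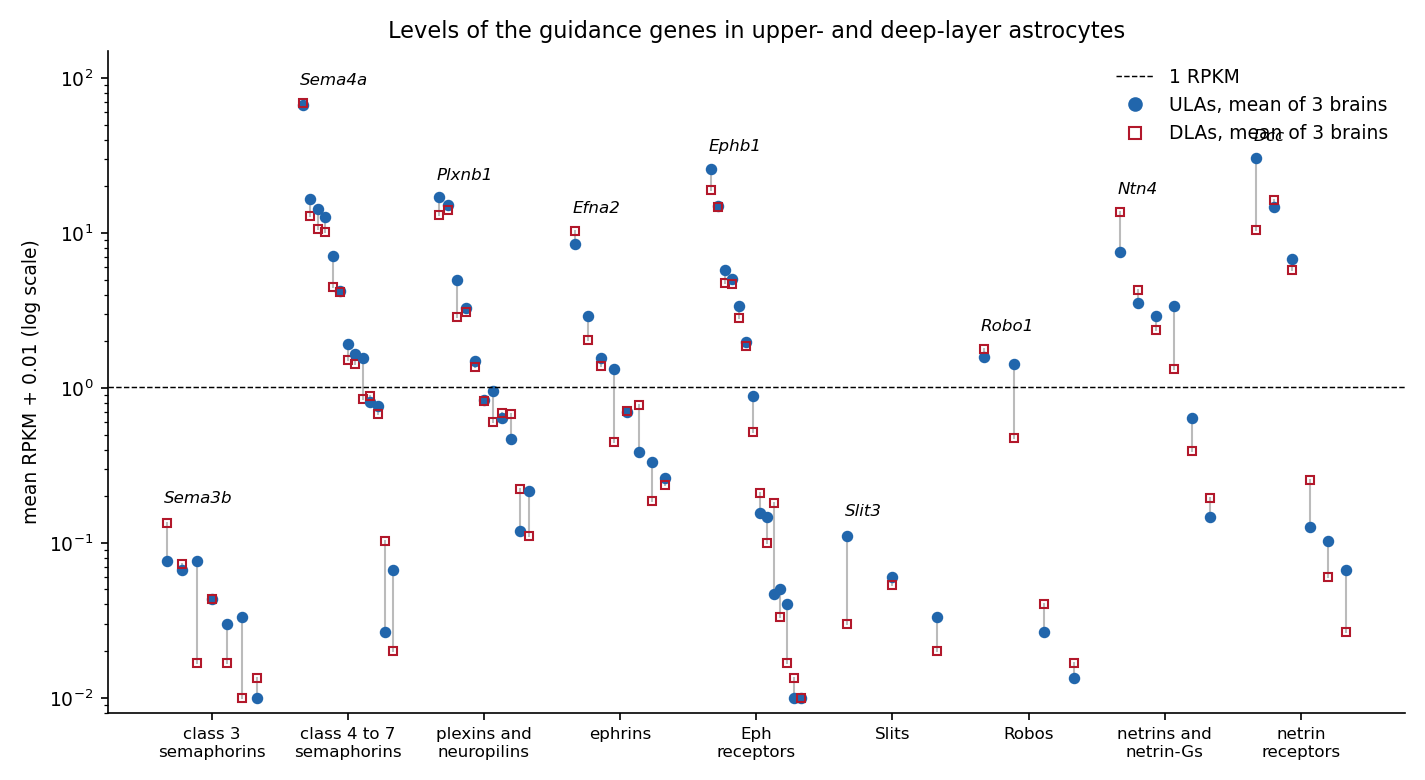
Mean RPKM of each of the 72 guidance genes (y axis, RPKM + 0.01 on a log scale) by family (x axis), with filled circles for ULAs and open squares for DLAs, each the mean of 3 brains, and a dashed line at 1 RPKM. The gene with the highest mean of each family is labelled, and every class 3 semaphorin and Slit lies below the line, whereas Sema4a lies highest at means of 66.8 and 69.4 RPKM.

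With regard to the layers, Dcc, a receptor for netrins, and Ntng1, a netrin-G held on the membrane by a lipid anchor, were higher in ULAs (limma, adjusted p under 0.05). These are 2 of the 31 members tested, or 6.45%, against 0.714% of all rows (100 of 13999) that were called in this direction. No member was called higher in DLAs (0 of 31), against 0.914% of all rows (128 of 13999). At an unadjusted p under 0.05, 11 of the 31 members (35.5%) were higher in ULAs and 1 (3.23%), Ntn4, was higher in DLAs, against 5.64% and 10.8% of all rows (790 and 1505). Without the libraries of brain 3, 6 members (Dcc, Ntng1, Sema4b, Sema6a, Plxnb2 and Ephb1) were called higher in ULAs and 1 (Ntn4) was called higher in DLAs, whereas the calls over all rows grew from 100 to 426 and from 128 to 687. When the limit on mean RPKM was dropped and only the 15420 rows listed at 0 in every library were left out, 27963 rows were tested, and 0 rows passed in limma in either direction. In that fit, which took in every member but Epha2, 14 of 71 members (19.7%) were higher in ULAs and 5 (7.04%) in DLAs at an unadjusted p under 0.05, against 4.02% and 5.99% of all rows (1124 and 1675). Those higher in DLAs were Ntn4, Ephb2, Efnb3, Unc5b and Efna2.

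The direction of the differences, called or not, was uneven between the layers. The counts of members higher in ULAs that follow include Dcc and Ntng1. The value was higher in ULAs in all 3 brains for 13 of the 31 members (41.9%), against 15.2% of all rows, and was higher in DLAs in all 3 brains for 3 members (9.68%), namely Ntn4, Ntng2 and Efna2, against 23.2% of all rows. The layers did not overlap, with all 3 ULA values above all 3 DLA values, for 11 members (35.5%), against 6.59% of all rows. The opposite order held for 1 member (3.23%), Ntng2, against 9.27% of all rows. The median difference (ULAs minus DLAs, in log2(RPKM + 1)) was 0.19 over the members and −0.03 over all rows. By brain, the median log2 ratio of the members was 0.25, 0.26 and 0.10 in brains 1, 2 and 3, against −0.03, −0.02 and −0.04 over all rows. In the same brains, 26, 24 and 17 of the 31 members (83.9%, 77.4% and 54.8%) were higher in ULAs, against 44.9%, 47.4% and 43.9% of all rows. In a bulk sample, fewer cells of a type and less RNA per cell cannot be told apart.

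These counts have to be read beside mRNA length, because long mRNAs as a whole leaned toward ULAs. The log2 ratio of ULAs to DLAs correlated with length across all rows tested with Spearman's rho of 0.21, 0.37 and 0.10 in brains 1, 2 and 3; rows share their libraries and are not independent. The members are long, with a median of 4667 bases against 2444 bases for all rows. Among the 5437 rows of at least 3000 bases, the median difference was 0.06, and the layers did not overlap, with ULAs higher, in 11.2% of rows. The 27 members of that length had a median of 0.21, and 11 of them had layers that did not overlap. The other 4 members were shorter, with a median of −0.24. After a correction for the length trend in each brain, the median difference was 0.05 over the members and −0.05 over all rows, and only Dcc passed among the members. What gives rise to the length trend was not tested.

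**Figure D2:**
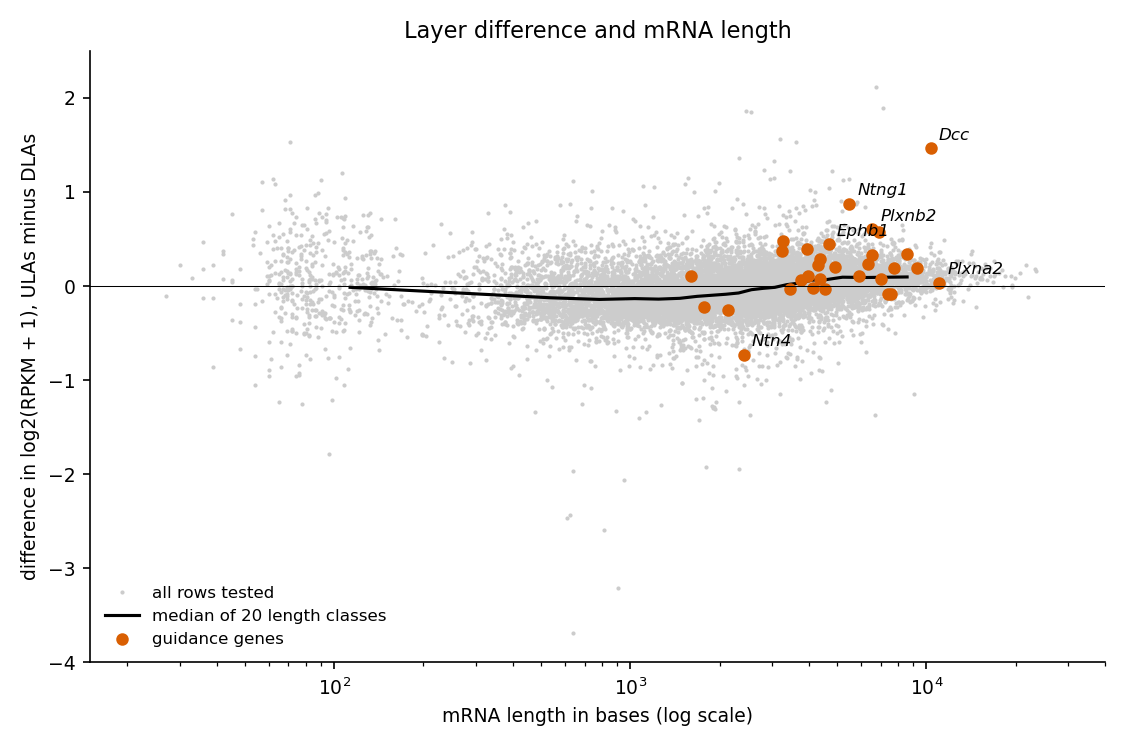
Difference in log2(RPKM + 1), ULAs minus DLAs (y axis), against mRNA length in bases (x axis, log scale) for the 13999 rows tested (grey), with the guidance genes in orange and a black line through the medians of 20 length classes. The line runs from below 0 for shorter mRNAs to above 0 for the longest, and Dcc, at 10325 bases, lies far above it.

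**Figure D3:**
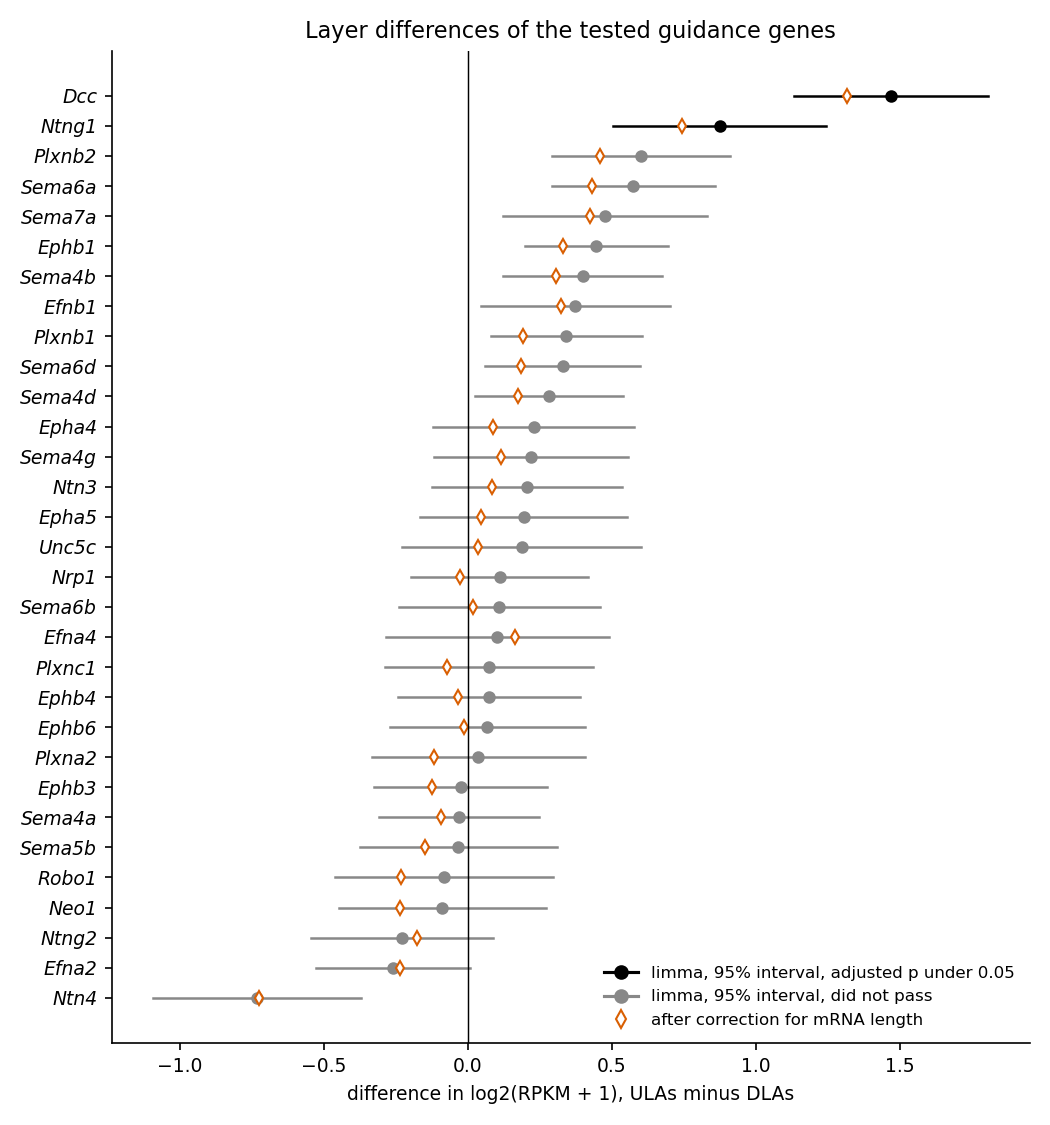
Difference in log2(RPKM + 1), ULAs minus DLAs (x axis), for the 31 tested guidance genes (y axis), with circles for the limma estimate, bars for its 95% interval and open diamonds for the estimate after correction for mRNA length. The intervals of Dcc and Ntng1 (black) lie farthest to the right, and that of Ntn4 lies farthest to the left.

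Within the netrin system, Dcc showed the largest difference of any member. Its RPKM was 26.1, 35.9 and 28.8 in ULAs of brains 1, 2 and 3, and 8.56, 9.17 and 13.5 in DLAs of the same brains. The lowest ULA value was thus well above the highest DLA value. The levels were 30.3 ± 5.07 RPKM in ULAs and 10.4 ± 2.68 RPKM in DLAs (SD, n = 3 brains), and the mean ratio was 3.03 ± 0.89. Each value rests on at least 1862 reads. The difference of 1.47 ± 0.15 (SE; 95% interval 1.13 to 1.805) had an adjusted p of 0.00146 in limma, and 0.00443 after the length correction. It did not pass when the limit on mean RPKM was dropped (limma, adjusted p = 0.301). The lowest adjusted p of the alternatives in limma, 1.37e-11, came without brain 3. That fit rests on brains 1 and 2 alone, so its p is not read as stronger than that from all 3 brains. Dcc lies on chromosome 18, where its row spans 29 exons and 10325 bases of mRNA.

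The other receptors of this system did not pass. Neo1, a receptor for netrins and for repulsive guidance molecules, measured 16.1, 13.7 and 14.2 RPKM in ULAs and 20.1, 9.89 and 19.1 RPKM in DLAs. The DLA values lay on both sides of the ULA values (difference −0.09, adjusted p = 0.831 in limma). Unc5c, which mediates repulsion by netrins, was 5.77 ± 1.05 RPKM in DLAs and 6.77 ± 1.65 RPKM in ULAs (SD, n = 3 brains), with an adjusted p of 0.661 in limma. Unc5a, Unc5b and Unc5d were at most 0.35 RPKM in any library. At these low levels, the layers of Unc5b did not overlap, with DLAs higher (means of 0.12 and 0.24 RPKM in ULAs and DLAs). Those of Unc5d did not overlap in the opposite order (0.06 and 0.02 RPKM).

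Ntng1 was the only ligand that passed. This protein binds a partner on the surface of other cells rather than the classic netrin receptors. Its RPKM was 3.20, 4.66 and 2.17 in ULAs of brains 1, 2 and 3, and 1.4, 1.45 and 1.08 in DLAs. Every ULA value was above every DLA value, although the ULA values were spread widely (3.34 ± 1.25 against 1.31 ± 0.20 RPKM, SD, n = 3 brains). The reads behind these values numbered 157 to 655 per library. The difference of 0.87 ± 0.17 (SE) had an adjusted p of 0.0305 in limma. It no longer passed without brain 2 (adjusted p = 0.0942), after the length correction (0.0693), without the pairing of the brains (0.232) or when the limit on mean RPKM was dropped (0.408), and the lowest adjusted p, without brain 3, was 0.000769.

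Ntn4, a secreted netrin related to laminins, leaned the other way. Its RPKM was 8.53, 6.55 and 7.43 in ULAs, and 15.6, 8.10 and 17.4 in DLAs of brains 1, 2 and 3. DLAs were higher in each brain, but the layers overlapped because the DLAs of brain 2 were close to the ULA values. The DLA/ULA ratio averaged 1.801. The difference of −0.73 ± 0.16 (SE) had an adjusted p of 0.0579 in limma. The adjusted p was 0.00811 without brain 2, 0.0338 without brain 3 and 0.0259 among rows with a mean of at least 5 RPKM, and it ranged up to 0.424 over the alternatives. The summed RPKM of 10 endothelial cell markers was 1.67, 1.76 and 2.57 in ULAs and 4.33, 1.16 and 2.17 in DLAs of brains 1, 2 and 3. This sum was higher in DLAs in brain 1 only, whereas Ntn4 was higher in DLAs in each brain. The part of endothelial cells in the Ntn4 values was not tested.

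Among the remaining netrins, Ntng2, the paralog of Ntng1, was 4.15, 3.54 and 2.93 RPKM in ULAs and 4.24, 4.42 and 4.20 RPKM in DLAs. The lowest DLA value lay just above the highest ULA value, but the difference (−0.23, 95% interval −0.54 to 0.09) did not pass (limma, adjusted p = 0.456). Ntn3 was 2.88 ± 0.52 RPKM in ULAs and 2.35 ± 0.17 RPKM in DLAs (SD, n = 3 brains), and was higher in ULAs in each brain (difference 0.21, limma, adjusted p = 0.521). Ntn1, the classic ligand of Dcc, was between 0.10 and 0.23 RPKM in all 6 libraries, which corresponds to 12 to 40 reads. Ntn5 reached at most 0.88 RPKM.

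**Figure D4:**
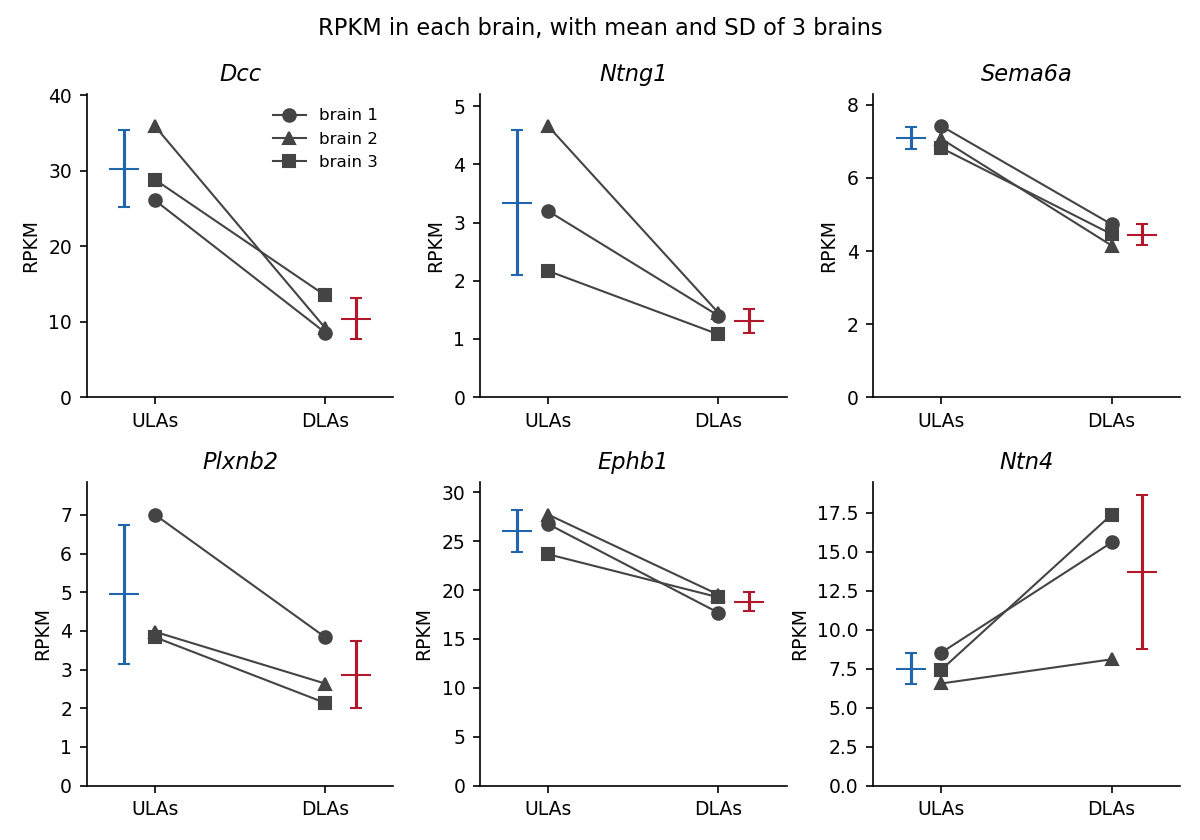
RPKM (y axis, from 0) of 6 guidance genes in ULAs and DLAs (x axis), with lines that join the libraries of the same brain and, at the sides, the mean and SD of 3 brains. Dcc, Ntng1, Sema6a, Plxnb2 and Ephb1 are lower in DLAs in each brain, whereas Ntn4 is higher in DLAs in each brain, least so in brain 2 (6.55 to 8.10 RPKM).

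The sequences before the start sites of Ntng1 and Ntn4 are shown because these netrin-family ligands had the largest differences of any ligand in either direction. The table places Ntng1 on the minus strand of chr3:109582968-109946390 and Ntn4 on the plus strand of chr10:93103794-93208717 (mm9). The 250 bases before each RefSeq start, on GRCm38.p6, are chr3:110143473-110143722 on the minus strand and chr10:93640799-93641048 on the plus strand. Capitals mark GC boxes (GGGCGG or its reverse complement CCGCCC).
Ntng1: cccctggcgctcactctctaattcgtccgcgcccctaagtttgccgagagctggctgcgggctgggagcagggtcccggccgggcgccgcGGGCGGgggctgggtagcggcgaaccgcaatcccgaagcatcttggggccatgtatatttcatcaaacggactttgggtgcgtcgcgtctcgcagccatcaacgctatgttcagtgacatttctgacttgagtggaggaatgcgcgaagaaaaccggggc
Ntn4: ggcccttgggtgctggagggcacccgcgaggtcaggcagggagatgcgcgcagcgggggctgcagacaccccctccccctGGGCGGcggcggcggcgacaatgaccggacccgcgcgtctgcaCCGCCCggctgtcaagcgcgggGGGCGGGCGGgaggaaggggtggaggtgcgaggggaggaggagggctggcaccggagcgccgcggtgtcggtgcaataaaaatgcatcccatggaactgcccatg

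Both sequences are rich in CG pairs, with 25 in Ntng1 and 26 in Ntn4, against a median of 6 over 32851 promoters of the same length. The GC box occurs at 1 place in Ntng1 and at 4 in Ntn4, of which a pair overlaps. It is present in 32.7% of all promoters, searched on both strands, and in promoters of 22 of the 29 tested members that matched a RefSeq promoter (27 of their 38 promoters). The TCF/LEF motif CTTTGAT (or ATCAAAG) is present in 3.21% of all promoters and in 0 of the 38 promoters of the members. These matches describe letters in a window only.

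Of the membrane-bound semaphorins, 9 were tested and 0 passed. Their median difference was 0.28 (0.17 after the length correction), against −0.03 (−0.05) over all rows. For 6 of the 9 (Sema4b, Sema4d, Sema4g, Sema6a, Sema6d and Sema7a), the layers did not overlap, with ULAs higher, against 6.59% of all rows and 11.2% of rows of at least 3000 bases. Sema6a, a transmembrane ligand of class A plexins, was 7.42, 7.07 and 6.82 RPKM in ULAs and 4.73, 4.15 and 4.46 RPKM in DLAs of brains 1, 2 and 3. The spread within each layer was small beside the gap between the layers (7.10 ± 0.30 against 4.45 ± 0.29 RPKM, SD, n = 3 brains). The difference of 0.57 ± 0.13 (SE) had an adjusted p of 0.0590 in limma. The adjusted p was 0.0455 among rows with a mean of at least 5 RPKM and 0.0231 without brain 3, and 0.358 at the highest of the alternatives. For its lists of layer-enriched genes, the study required a mean over 5 RPKM in the higher layer, a mean ratio over 1.5 and an unadjusted p under 0.05, here taken from a paired test over the brains. Sema6a (ratio 1.60 ± 0.09) and Dcc met them, 2 of the 72 members (2.78%), against 0.168% of all 43383 rows, and 0 members met them in DLAs, against 0.148% of all rows.

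Sema4a, the most abundant guidance gene, was 73.2, 65.4 and 61.7 RPKM in ULAs and 72.7, 84.1 and 51.4 RPKM in DLAs. The DLA values lay on both sides of all ULA values, and the difference of −0.03 (95% interval −0.31 to 0.25) did not pass (limma, adjusted p = 0.928). Sema4b was 15.7, 16.0 and 11.4 RPKM in ULAs and 11.2, 10.5 and 9.98 RPKM in DLAs. All ULA values were above the DLA values, although the ULAs of brain 3 were just above the DLAs of brain 1, and the difference of 0.40 ± 0.12 (SE) had an adjusted p of 0.157 in limma (0.0276 without brain 3, range over the alternatives 0.0276 to 0.711).

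Sema4d, a ligand of Plxnb1, was 13.3, 12.6 and 11.9 RPKM in ULAs against 10.4, 9.91 and 10.2 RPKM in DLAs (difference 0.28 ± 0.12 SE, limma, adjusted p = 0.263). Sema6d was 19.0, 16.2 and 14.2 RPKM in ULAs against 13.8, 11.7 and 13.1 RPKM in DLAs (0.33 ± 0.12 SE, limma, adjusted p = 0.220). For both genes, every ULA value was above every DLA value, by a narrow margin for Sema6d. Sema7a, which is attached to the membrane by a lipid anchor, was low in both layers, with 1.73, 1.60 and 1.34 RPKM in ULAs and 0.82, 0.90 and 0.79 RPKM in DLAs. Its layers were well separated at this low level, with a mean ratio of 1.86 ± 0.22 from 58 to 139 reads per library (difference 0.47, limma, adjusted p = 0.185). Sema4g had means of 1.90 and 1.49 RPKM in ULAs and DLAs.

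The layers of the other membrane semaphorins overlapped. Sema5b had means of 4.20 and 4.13 RPKM in ULAs and DLAs, and Sema6b had means of 1.64 and 1.41 RPKM. Sema4c, Sema4f, Sema5a and Sema6c had means under 1 RPKM and were not tested. Of the secreted class, Sema3b had the highest mean (0.10 RPKM). It was 0.03, 0.11 and 0.06 RPKM in ULAs and 0.16, 0.14 and 0.07 RPKM in DLAs of brains 1, 2 and 3. Sema3a, Sema3c, Sema3d, Sema3e, Sema3f and Sema3g were at most 0.12 RPKM in any library.

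Of the 5 semaphorin receptors tested, 0 passed, and the largest differences were those of Plxnb2 and Plxnb1, class B plexins that bind class 4 semaphorins. Plxnb2 was 7.01, 3.98 and 3.84 RPKM in ULAs and 3.84, 2.64 and 2.14 RPKM in DLAs of brains 1, 2 and 3. Brain 1 was higher than the other brains in both layers, so that the layers touched at 3.84 RPKM, but the ULA/DLA ratio was alike in all 3 brains (1.71 ± 0.18). The difference of 0.60 ± 0.14 (SE) had an adjusted p of 0.0695 in limma (0.0376 without brain 3, and 0.450 at the highest of the alternatives). Plxnb1, the Sema4d receptor, was 21.1, 15.03 and 14.7 RPKM in ULAs and 14.4, 12.6 and 12.1 RPKM in DLAs. Its lowest ULA value was close to its highest DLA value (difference 0.34 ± 0.12 SE, limma, adjusted p = 0.194).

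Nrp1, a neuropilin that binds class 3 semaphorins and is also a co-receptor for VEGF, was 14.6, 16.0 and 14.9 RPKM in ULAs and 13.5, 11.6 and 17.3 RPKM in DLAs. The DLA values spread around the ULA values (difference 0.11, 95% interval −0.20 to 0.42, limma, adjusted p = 0.737). Plxna2, a receptor of Sema6a, had means of 3.28 and 3.09 RPKM in ULAs and DLAs, and Plxnc1, a receptor of Sema7a, had means of 1.49 and 1.35 RPKM. Plxnb3, the other class B plexin, was 0 to 0.23 RPKM in ULAs and 0.15 to 0.26 RPKM in DLAs, and was higher in DLAs in each brain. Plxna1, Plxna3, Plxna4, Plxnd1 and Nrp2 also had means under 1 RPKM. Over the 5 tested receptors, the median difference was 0.11 (−0.03 after the length correction).

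Of the Eph receptors, Ephb1, which binds class B ephrins, was the most abundant and had the largest difference. It was 26.8, 27.7 and 23.7 RPKM in ULAs and 17.7, 19.5 and 19.3 RPKM in DLAs of brains 1, 2 and 3. All ULA values were above all DLA values, with the smallest gap in brain 3, and the means were 26.0 ± 2.12 and 18.8 ± 0.999 RPKM (SD, n = 3 brains). The difference of 0.45 ± 0.11 (SE) had an adjusted p of 0.0919 in limma, which was 0.0121 without brain 3 and 0.633 at the highest of the alternatives.

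Ephb3, another receptor for class B ephrins, was 21.5, 8.21 and 14.98 RPKM in ULAs and 20.7, 10.8 and 12.7 RPKM in DLAs. It differed more between brains than between layers, with both libraries of brain 1 highest and both of brain 2 lowest (difference −0.03, 95% interval −0.33 to 0.27, limma, adjusted p = 0.948). Epha4, which binds ephrins of both classes, had means of 5.75 and 4.72 RPKM in ULAs and DLAs (difference 0.23, limma, adjusted p = 0.497). Ephb4, Epha5 and Ephb6 had means of 5.05, 3.37 and 1.97 RPKM in ULAs and 4.67, 2.81 and 1.85 RPKM in DLAs, with layers that overlapped. Epha7 reached at most 0.94 RPKM, and Epha1, Epha3, Epha6, Epha10 and Ephb2 at most 0.32 RPKM. The layers did not overlap for Epha7, with ULAs higher (means of 0.88 and 0.51 RPKM in ULAs and DLAs). They did not overlap for Ephb2 either, with DLAs higher (means of 0.04 and 0.17 RPKM). Epha2 was listed at 0 in all 6 libraries, and Epha8 at 0 in 5 of 6.

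Among the ephrins, Efna2 and Efnb1 lay on opposite sides. Efna2 was 11.0, 5.56 and 9.04 RPKM in ULAs and 13.3, 7.42 and 10.2 RPKM in DLAs. It was higher in DLAs in each brain, while the brains differed more than the layers did (difference −0.26, 95% interval −0.53 to 0.01, limma, adjusted p = 0.321). Efnb1, a class B ephrin and thus a ligand for Ephb1, was 2.71, 3.13 and 2.81 RPKM in ULAs and 1.96, 2.44 and 1.64 RPKM in DLAs. Its layers did not overlap (difference 0.37 ± 0.15 SE, limma, adjusted p = 0.251). Efna4 had means of 1.55 and 1.37 RPKM in ULAs and DLAs. Efna1, Efna3, Efna5, Efnb2 and Efnb3 had means under 1 RPKM.

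The Slit and Robo families were at low levels throughout. Robo1, the only tested member, was 1.15, 1.94 and 1.62 RPKM in ULAs and 0.96, 1.86 and 2.51 RPKM in DLAs, so that the layers overlapped fully (difference −0.08, limma, adjusted p = 0.849). Robo2 was 1.08, 2.02 and 1.15 RPKM in ULAs and 0.19, 0.64 and 0.56 RPKM in DLAs. These values did not overlap, but the mean over all libraries was under 1 RPKM. Slit3 had the highest mean of the Slits, at 0.12, 0.10 and 0.08 RPKM in ULAs and 0.02, 0 and 0.04 RPKM in DLAs, all from at most 15 reads in a library. Slit1, Slit2, Robo3 and Robo4 were at most 0.10 RPKM.

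When the limit was lowered to a mean of 0.5 RPKM, an alternative chosen after the data were seen, 15883 rows were tested. Of these rows, 94 were called higher in ULAs and 109 higher in DLAs in limma. The rows tested took in 12 further members, and 0 of the 12 passed. The largest differences among them were 0.72 for Robo2 (adjusted p = 0.0779) and 0.66 for Efna1, a class A ephrin (2.04, 1.04 and 0.86 RPKM in ULAs, and 0.31, 0.37 and 0.63 RPKM in DLAs, adjusted p = 0.177). Both genes were higher in ULAs in each brain. Of the other members tested here, Epha7 had a difference of 0.32 (adjusted p = 0.361) and Efnb3 a difference of −0.35 (adjusted p = 0.327). The layers of Efnb3 did not overlap, with DLAs higher (means of 0.38 and 0.76 RPKM in ULAs and DLAs).

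Other genes of the same pathways were read from lists written from general knowledge. Of 28 cues, co-receptors and regulators outside the families above, 20 were tested, 2 were called higher in ULAs and 0 higher in DLAs, against 0.714% and 0.914% of all rows. Their median difference was 0.19 (0.05 after the length correction), against −0.03 (−0.05) over all rows. Dag1, which encodes dystroglycan, a matrix receptor that also binds Slits, was 80.0, 64.1 and 58.3 RPKM in ULAs and 55.0, 42.7 and 38.8 RPKM in DLAs (difference 0.56 ± 0.10 SE, limma, adjusted p = 0.0187). Tnfrsf19, a receptor of the TNF receptor family, was 187, 171 and 171 RPKM in ULAs and 129, 110 and 131 RPKM in DLAs (0.52 ± 0.10 SE, limma, adjusted p = 0.0276). For both genes, all ULA values were above all DLA values. Of 64 intracellular effectors of guidance receptors, such as small GTPases and their regulators, 57 were tested and 0 passed in either direction. Their median difference was 0.02 (−0.09 after the length correction), against −0.03 (−0.05) over all rows.

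Astrocyte markers were abundant in all libraries, in that 10 astrocyte genes summed to 11448 to 12391 RPKM in ULAs and 10755 to 11542 RPKM in DLAs. Of these, 1, Gfap, was called higher in DLAs. Markers of other cell types were far lower, but were not equal between the layers. The oligodendrocyte markers summed to 87.7 to 181 RPKM in ULAs and 179 to 285 RPKM in DLAs, and 7 of the 9 tested were called higher in DLAs. The markers of oligodendrocyte precursors gave 86.2 to 97.1 and 97.7 to 135 RPKM (0 of 2 tested called). Most of this sum came from 1 gene, Olig1, with a mean of 96.8 RPKM over all libraries. Olig2 averaged 8.23 RPKM, Cspg4 0.46 RPKM and Pdgfra 0.02 RPKM. The 11 markers of neurons gave 7.29 to 7.74 and 5.27 to 7.96 RPKM. The microglia markers were at 14.7 to 15.9 RPKM in ULAs and 9.47 to 13.2 RPKM in DLAs, and those of pericytes and smooth muscle at 16.1 to 23.2 and 12.01 to 19.1 RPKM, of which Rgs5 was called higher in ULAs. Among the endothelial cell markers, 0 of 10 averaged 1 RPKM. Fibroblast markers gave 20.02 to 54.3 and 15.5 to 58.4 RPKM. Blood cell markers were at 0.81 to 1.07 RPKM in ULAs and 4.70 to 32.6 RPKM in DLAs, with Hbb-b1 and Hbb-b2 called higher in DLAs. The markers of upper-layer neurons summed to 128 to 131 and 92.7 to 139 RPKM, and those of deep-layer neurons to 4.03 to 7.93 and 4.57 to 9.64 RPKM. Several of these sums also came mostly from 1 gene. By mean over all libraries, this was Rorb (104 RPKM) for upper-layer neurons and Ptgds (32.9 RPKM) for fibroblasts. It was P2ry12 (10.7 RPKM) for microglia and Pdgfrb (14.5 RPKM) for pericytes and smooth muscle. In the upper-layer list, Cux1 averaged 10.2 RPKM and Cux2 0.425 RPKM. Abcc9 (pericytes), Slc6a13 (fibroblasts) and Bcl11b (deep-layer neurons) were listed at 0 in all 6 libraries. The part of these cells in the values of the guidance genes was not tested.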

How the data were processed

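RNA of sorted ULAs and DLAs of 3 brains was sequenced as single 36-base reads. The authors deposited RPKM values for 43383 rows, cut to 2 decimals. The submitters' processing notes name bcl2fastq 1.8.4, CASAVA 1.8.2 and genome build mm9, and the aligner and counting program are not given in the sources used here. Rows have gene symbols and may join several transcripts, so isoforms were not separated. Per the labels, libraries are numbered 1 to 3 in each layer, and the study compared the layers in pairs over the brains. Deviations from the layer means were correlated between libraries of 1 number (r across rows of 0.42, 0.33 and 0.34, against −0.20 to −0.16 for different numbers), so the number was taken as the brain. That the libraries came from separate brains is the study's statement.

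Depth was read from rows of up to 500 bases, whose values stepped by whole reads for 99.9% to 100% of values (at most 79.0% at the next best depth). The deposited values had been cut to 2 decimals before and after the scaling by length, so reads were derived only to give precision and the test ran on RPKM. Rows that averaged 1 RPKM or more were fitted on log2(RPKM + 1), where differences of low genes are understated, with limma 3.58.1 in R 4.3.3 (brain and layer as terms, intensity trend), 2-sided p-values and Benjamini-Hochberg adjustment over all 13999 rows. A gene was called at an adjusted p under 0.05. An exact permutation test of 3 against 3 libraries cannot give a p under 0.1, or under 0.25 with pairs kept, and was not used. Summaries used Python 3.11.15, pandas 2.3.3, numpy 2.4.6 and scipy 1.17.1, and figures matplotlib 3.10.9. The length correction subtracted a loess curve (span 0.5) of log2 ratio on mRNA length in each brain. The other alternatives were quantile normalization, median centring, a pseudocount of 0.1, a limit of 5, of 0.5 or none on mean RPKM, no brain term, no variance trend, leaving out each brain in turn, an adjusted p under 0.1 and the study's criteria.

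The members and gene lists were chosen with earlier results of these data known. Genes described with values in every library were those called, those with a mean of at least 10 RPKM, the most abundant of each family, and those with a log2 difference of at least 0.5 in 1 direction in all 3 brains, plus others of interest chosen after their values were seen (Sema7a, Efnb1, Ntng2, Robo2 and Efna1).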

Additional observations from a re-analysis of the deposited data

How the results depend on the processing

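Members called higher in ULAs numbered 2, and numbered 1 without a replicate block (no pairing of the brains), 1 with the length correction, 0 with no filter on low RPKM and 5 at an adjusted p under 0.1, and 1 to 6 with 1 brain left out. Members called higher in DLAs numbered 0, and 1 at a mean of at least 5 RPKM or at an adjusted p under 0.1, and 0 to 1 with 1 brain left out. All rows called numbered 100 in ULAs and 128 in DLAs, and then 23 and 18 without the block, 0 and 0 with no filter, 63 and 80 with the length correction, 65 and 79 without the variance trend and 209 and 255 at an adjusted p under 0.1. The study's criteria gave 73 and 64 rows. With 1 brain left out, 104 to 426 and 126 to 687 rows were called. Quantile normalization turned the balance of calls to 138 in ULAs and 103 in DLAs. The median difference of the members moved from 0.187 to 0.0554 with no filter and to 0.0454 with the length correction. The cause of these changes was not tested.

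Of 189 values for 16 named genes under the alternatives, 167 kept their direction and their side of the threshold, 5 lost a call, 8 gained one, and 9 reversed, all in genes whose reported difference lay between −0.09 and 0.11. The reversed differences were 0.0076 and 0.0527 for Ephb3 and Sema4a with quantile normalization, −0.0278 for Nrp1 with the length correction, and those seen with 1 brain left out. These ran from −0.1505 to 0.1384 for Ephb3, −0.3501 to 0.0677 for Neo1 (0.0189 without brain 1), −0.0515 to 0.2688 for Nrp1, −0.1911 to 0.0866 for Robo1 and −0.1749 to 0.1335 for Sema4a. Depth limits the members at the lowest levels, such as Slit3, with at most 15 reads in a library.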
